A study of Solanum lycopersicum with 18 samples.

Results

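A set of 10 genes of ethylene perception and signalling was followed in tomato fruit (Solanum lycopersicum): the receptors ETR1, ETR2, NR (also called ETR3), ETR4, ETR5 and ETR6, and downstream of them CTR1, EIN2, EIL1 and EBF1. They were chosen by name and identifier, with earlier results of these data known, and are 10 of the 35802 identifiers in the expression table. RNA was sequenced from fruit of TF18, a transgenic line in the cultivar Ailsa Craig in which FUL1 and FUL2 are suppressed, of the rin mutant (LA3754, in the Ailsa Craig background) and of wild-type Ailsa Craig. Each genotype was sampled at 45 DAP, the age at which wild-type fruit is pink, and at 35 DAP, when it is green, with 3 libraries in each of the 6 groups. The titles use the stage names pink and green for all 3 genotypes. TF18 is 1 line, the labels do not name the promoter of its transgene, and they call the libraries triplicates without naming plants. The p-values below therefore measure only how far these libraries spread, which may be technical. The genotype comparisons show which genes differ in fruit of the rin mutant or with FUL1 and FUL2 suppressed. At 45 DAP, a need of a gene for RIN or the FUL proteins and a different state of ripening cannot be told apart.

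Ethylene receptors are membrane proteins that hold the pathway off while no hormone is bound. They act through the kinase CTR1, which blocks EIN2, and once ethylene binds, EIN2 is released and the EIN3-like transcription factors, among them EIL1, turn on ethylene-responsive genes. EBF1 is an F-box protein that marks EIN3-like proteins for breakdown. Because the receptors are repressors, more receptor protein means less sensitivity in the standard model of the pathway. Only transcripts were measured here, so the values give neither receptor protein nor sensitivity. NR is named after Never-ripe, a dominant tomato mutant whose fruit do not respond to ethylene, and NR, ETR4 and ETR6 are known as the receptors whose transcripts increase in ripening tomato. The MADS-box proteins RIN, FUL1 and FUL2 regulate transcription during ripening.

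The values are RPKM, which correct the reads of a gene for its length and for library depth, so levels can be compared between genes. Whole reads were recovered from them, and the read totals ran from 5740900 to 17334324. Wild-type libraries had 10452311, 5740900 and 7888620 reads at 45 DAP, against 17334324, 16813367 and 15326048 reads at 35 DAP, and the part of this in the results was not tested. All 10 genes passed the filter of 1 RPKM in at least 3 libraries, and all 10 reached 1 RPKM in each of the 18 libraries. The read counts per library ran from 37 for ETR5 and ETR6 in their lowest libraries to 6179 for ETR4. A gene is said to have risen, fallen or been called where limma's adjusted p over all 20658 genes tested was under 0.05 and the log2 fold change, taken on log2(RPKM + 1), was at least 1 in size. That scale understates the change of genes with low values. One property of the whole table touches the wild-type comparisons. Over all genes, the median of the log2 fold changes from 35 to 45 DAP in the wild type was -0.58 for the values as deposited. It was -0.34 after TMM-type scaling and 0.08 after quantile normalization. Small changes of a member in that comparison therefore depend on the scaling. In bulk fruit, fewer cells of a type and less RNA per cell cannot be told apart. RIN, FUL1 and FUL2 themselves can be given only as a count, since the table pairs no identifier with a name. Of 3 identifiers held to be these genes, limma called 3 lower at 45 DAP and 1 lower at 35 DAP in TF18 against the wild type. Over all genes, 6.19% and 4.38% were lower in the same order. In rin limma called 1 lower and 1 higher at 45 DAP, where 3.42% and 25.9% of all genes were. At 35 DAP it called none in rin (1 with an unadjusted p under 0.05), where 0.092% of all genes were called. These counts do not tell which of the 3 identifiers was lower or higher, and RIN is not a gene suppressed by the TF18 transgene.

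In wild-type fruit, 3 of the 6 receptors, NR, ETR4 and ETR6, rose between the green and the pink stage. Over all 10 genes, 4 rose, where 7.54% of all genes tested rose, and 2 fell, where 34.2% did. The median log2 fold change of the 10 genes was 0.03, against -0.58 for all genes.

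NR (Solyc09g075440) had 258, 227 and 294 RPKM in the 3 wild-type libraries of 45 DAP, against 31.2, 35.6 and 36.3 RPKM in those of 35 DAP. The groups lay far apart. The log2 fold change was 2.88 with an SE of 0.25 (limma adjusted p = 3.5e-07), which is 7.34-fold on the fitted scale. With its coding length of 1908 bases, as recovered from the values, NR was the shortest of the 6 receptor genes, which otherwise ran from 2211 to 2337 bases. NR is known as the tomato receptor without the receiver domain at its end.

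ETR4 (Solyc06g053710), a receptor of the second subfamily, had 259, 213 and 319 RPKM in pink wild-type fruit, against 59.4, 69.5 and 77.0 RPKM in green fruit. Again no library of one age reached the range of the other, and the log2 fold change was 1.91 (SE 0.23, limma adjusted p = 6.3e-06). ETR4 and NR thus stood at like levels in pink fruit, at 264 RPKM ± 53.0 and 260 RPKM ± 33.5 (SD, n = 3 each). In green fruit ETR4 was the more abundant, at 68.6 RPKM ± 8.81 against 34.4 RPKM ± 2.74 for NR (SD, n = 3 each).

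ETR6 (Solyc09g089610), of the same subfamily, stayed at low levels, with 13.7, 9.15 and 14.0 RPKM at 45 DAP against 7.64, 5.12 and 2.996 RPKM at 35 DAP. The libraries of the ages did not overlap, but those of green fruit spread widely. The log2 fold change was 1.14 (SE 0.43, limma adjusted p = 0.03). This call is a weak one. It was lost without wild-type replicate 2 or 3 of 35 DAP (adjusted p = 0.06 and 0.13) and without replicate 1 or 3 of 45 DAP (adjusted p = 0.078 and 0.081), and with a pseudocount of 5 the log2 fold change was 0.77.

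**Figure D1:**
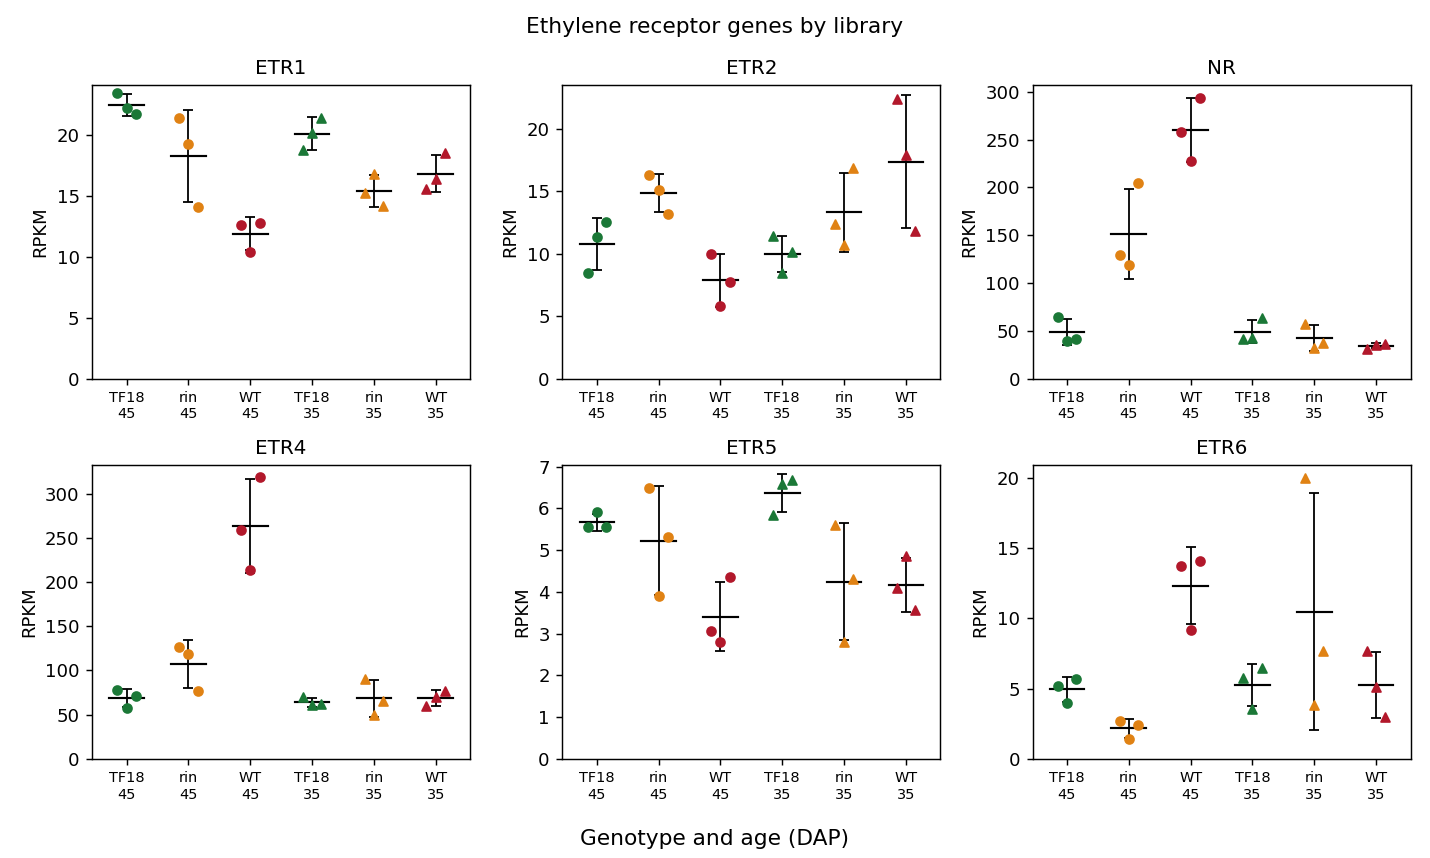
RPKM of the 6 receptor genes (y axis, from 0) in each library, by genotype and age in DAP (x axis). Circles are libraries of 45 DAP and triangles of 35 DAP, the long line is the mean and the bars are ± 1 SD of 3 libraries. NR and ETR4 reach 227 to 294 and 213 to 319 RPKM in the wild type of 45 DAP, while ETR1, ETR2 and ETR5 reach at most 23.5 RPKM.

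The other receptors did not rise in the wild type on the deposited scale. ETR2 (Solyc07g056580) fell, with 9.996, 5.83 and 7.74 RPKM in pink fruit against 22.4, 17.9 and 11.8 RPKM in green fruit. All green libraries lay above the pink ones, and limma gave -1.04 on the log2 scale with an SE of 0.25 (adjusted p = 0.002). The size of that fall rests on the scaling, at -0.71 after TMM-type scaling and -0.28 after quantile normalization (adjusted p = 0.36). It also passed below the fold threshold without wild-type replicate 1 of 35 DAP (-0.84), replicate 2 of 35 DAP (-0.995), or replicate 2 of 45 DAP (-0.86), and with a pseudocount of 5 (-0.78).

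ETR1 (Solyc12g011330), the tomato gene named after the first ethylene receptor found in Arabidopsis, had 12.6, 10.4 and 12.7 RPKM at 45 DAP against 15.6, 16.4 and 18.5 RPKM at 35 DAP. Its log2 fold change of -0.47 (limma adjusted p = 0.017) is below the threshold of size, and it was 0.17 with quantile normalization. ETR5 (Solyc11g006180) was the least abundant of these 3, with 3.07, 2.80 and 4.35 RPKM in pink fruit against 4.08, 4.85 and 3.57 RPKM in green fruit. Its groups overlapped, and the 95% interval of the log2 fold change ran from -0.71 to 0.24 on the deposited scale. With quantile normalization it was 0.94 (adjusted p = 0.002), so no direction can be given for ETR5.

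Because RPKM is per length, the 6 receptors can be added up in each library. Their sum was 559 RPKM ± 91.6 in pink wild-type fruit, against 147 RPKM ± 5.47 in green fruit (SD, n = 3 each). NR, ETR4 and ETR6 together made up 95.8% ± 0.42 of the sum in pink fruit and 73.7% ± 3.68 in green fruit (SD, n = 3 each). A factor applied to a whole library does not alter the share. The ages did not overlap in either measure. Both differences had a two-sided exact permutation p of 0.1, and with 3 libraries on each side no smaller value is possible, so the test cannot pass 0.05. NR, ETR4 and ETR6 were grouped as receptors known to rise in ripening tomato, so the test of their share is not independent of that knowledge. Of the 3, NR held 46.7% ± 1.70 of the sum in pink fruit and 23.4% ± 1.02 in green fruit (SD, n = 3 each). ETR4 held 47.0% ± 1.75 and 46.7% ± 4.45, and ETR6 2.19% ± 0.26 and 3.62% ± 1.73, in the same order (SD, n = 3 each). The larger pooled share in pink fruit therefore lay with NR. Of the other receptors, ETR1 held 2.15% ± 0.17 in pink fruit and 11.5% ± 0.76 in green fruit (SD, n = 3 each).

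**Figure D2:**
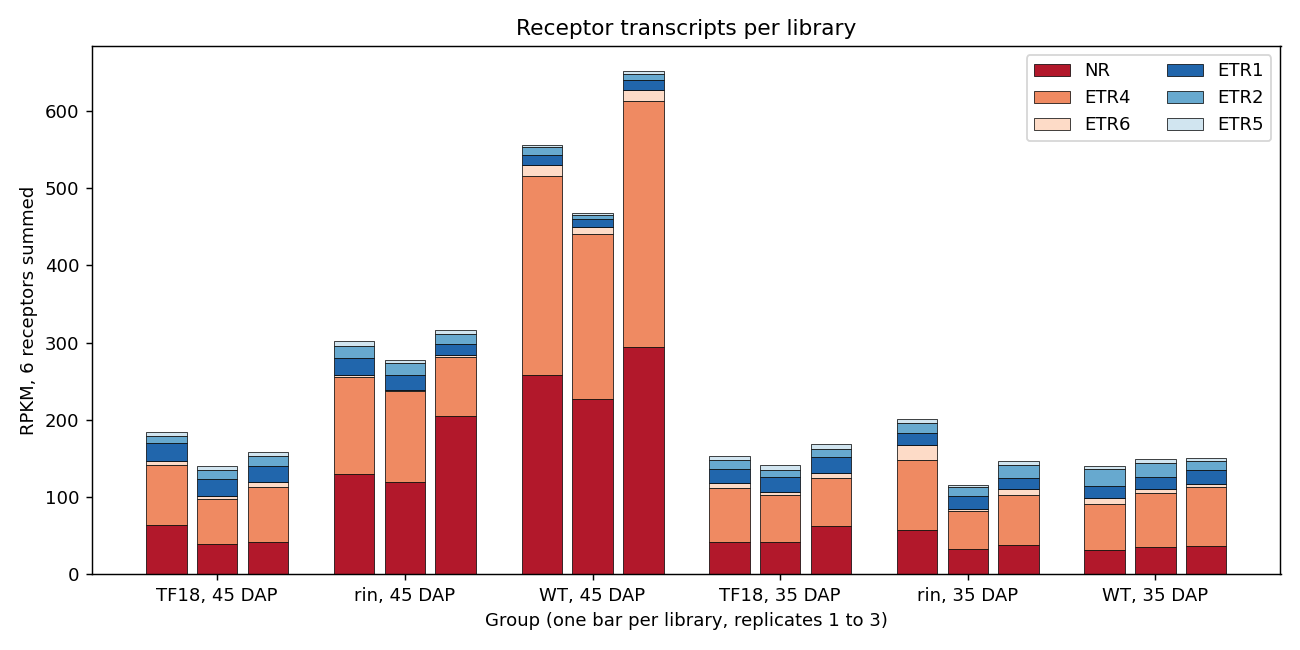
Summed RPKM of the 6 receptor genes (y axis), with 1 bar per library in the order of the replicate numbers, for TF18, rin and the wild type at 45 and at 35 DAP (x axis). Colours are the receptors. The wild-type bars of 45 DAP reach 469 to 652 RPKM, those of rin 277 to 317, and those of TF18 140 to 184, against 116 to 201 over the 9 libraries of 35 DAP.

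Downstream of the receptors, EIN2 and EBF1 changed in opposite directions in the wild type. EIN2 (Solyc09g007870), the membrane protein that carries the signal on to the nucleus, had 13.1, 5.86 and 18.4 RPKM in pink fruit, against 52.8, 56.9 and 73.5 RPKM in green fruit. Every pink library lay under every green one, and the mean was 4.90-fold lower. The log2 fold change was -2.32 (SE 0.36, limma adjusted p = 6.7e-05), and it stayed between -2.64 and -1.80 under all alternatives run, past the threshold in each.

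EBF1 (Solyc12g009560) rose, with 73.2, 82.6 and 124 RPKM at 45 DAP against 28.3, 38.0 and 30.2 RPKM at 35 DAP. The ages did not overlap, and the log2 fold change was 1.48 (SE 0.27, limma adjusted p = 0.0003). It kept its call under all alternatives run, with values between 1.26 and 1.85.

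CTR1 and EIL1 were not called. CTR1 (Solyc10g083610), the kinase that the receptors act through, had 26.0, 9.86 and 27.3 RPKM in pink fruit against 15.04, 15.05 and 16.4 RPKM in green fruit, so that the pink libraries lay on both sides of the green ones. Its log2 fold change was 0.30 as deposited (limma adjusted p = 0.45), 0.65 after TMM-type scaling (adjusted p = 0.07) and 0.80 after quantile normalization (adjusted p = 0.014), below the threshold of size in each. The lowest of them, replicate 2, is also the library with the fewest reads, and it held the lowest value of all 18 libraries for ETR1, ETR2, ETR5, CTR1 and EIN2. EIL1 (Solyc06g073720) had 56.5, 59.7 and 57.3 RPKM at 45 DAP against 64.2, 70.6 and 106 RPKM at 35 DAP, all below the green libraries. Limma's log2 fold change of -0.43 did not pass (adjusted p = 0.068). For EIL1 it was -0.07 after TMM-type scaling (adjusted p = 0.77) and -0.44 after quantile normalization (adjusted p = 0.082).

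**Figure D3:**
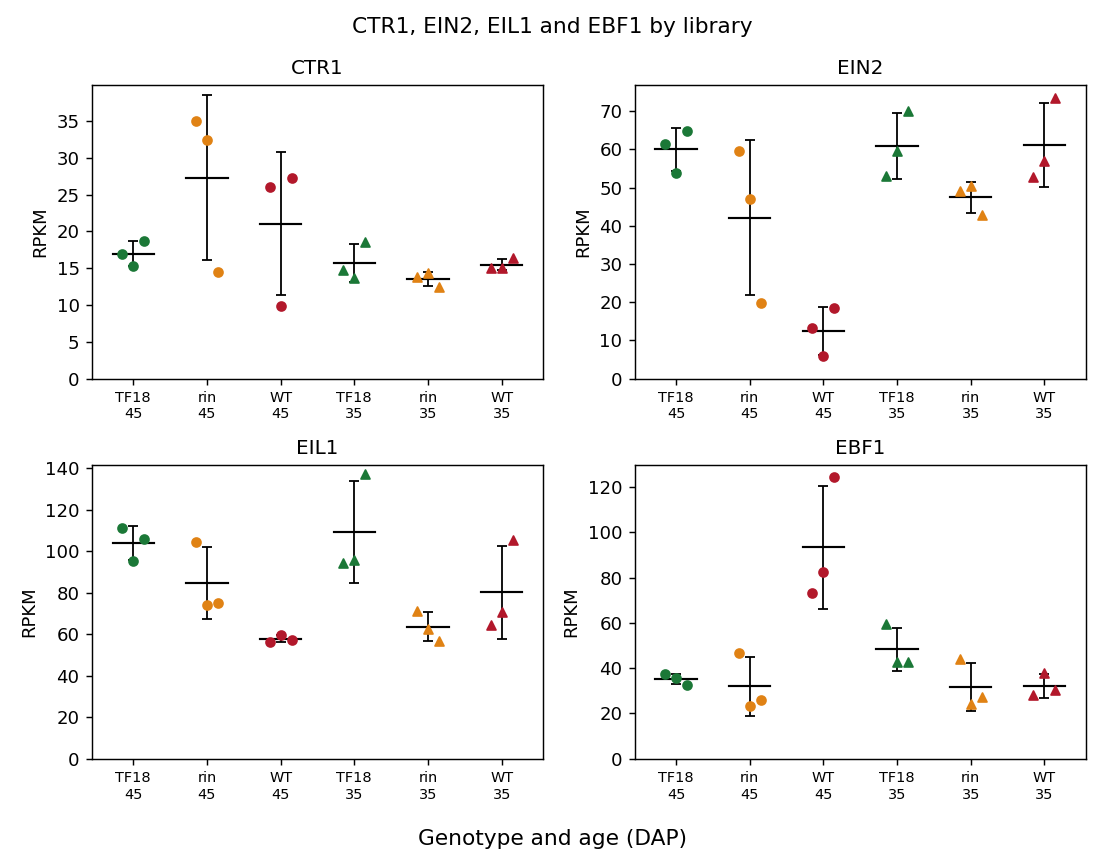
RPKM of CTR1, EIN2, EIL1 and EBF1 (y axis, from 0) in each library, by genotype and age in DAP (x axis), drawn as for the receptors with the mean and ± 1 SD of 3 libraries. EIN2 is at 5.86 to 18.4 RPKM in the wild type of 45 DAP and at 42.9 RPKM or more in every library of 35 DAP, and EBF1 is highest in the wild type of 45 DAP.

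In rin fruit, which do not ripen normally, NR rose as well, while ETR6 fell. These were the only calls among the 10 genes between 35 and 45 DAP in rin, 1 higher, where 7.49% of all genes rose, and 1 lower, where 8.84% fell. NR had 129, 119 and 205 RPKM in rin of 45 DAP, against 57.2, 32.2 and 37.4 RPKM at 35 DAP, with no overlap. The log2 fold change was 1.81 (SE 0.25, limma adjusted p = 0.00015), or 3.52-fold on the fitted scale. It was called under all alternatives run, between 1.56 and 2.05.

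ETR6 went the other way from the wild type, with 2.70, 1.41 and 2.44 RPKM at 45 DAP against 19.98, 3.81 and 7.65 RPKM at 35 DAP. The libraries of 35 DAP spread widely, yet all 3 lay above those of 45 DAP. On the log2 scale the change was -1.61 (SE 0.43, limma adjusted p = 0.011). With only the rin libraries in the fit the adjusted p was 0.073, and with a pseudocount of 5 the value was -0.97. The reads behind it were 97, 37 and 65 at 45 DAP and 561, 139 and 291 at 35 DAP.

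ETR4, which rose in the wild type, had 126, 119 and 76.8 RPKM in rin of 45 DAP against 90.6, 49.2 and 65.7 RPKM at 35 DAP. These groups overlapped, and the value of 0.65 on the log2 scale (SE 0.23, limma adjusted p = 0.045) was under the threshold of size. CTR1 had 35.0, 32.4 and 14.4 RPKM at 45 DAP against 13.9, 14.4 and 12.5 RPKM at 35 DAP. Replicate 3 of 45 DAP stayed near the level of 35 DAP, and the log2 fold change of 0.86 (limma adjusted p = 0.065) became 1.25 (adjusted p = 0.0093) without it and 1.14 with library weights. EIN2 and EBF1 showed no called change in rin, with log2 fold changes of -0.30 (95% interval -1.07 to 0.47) and -0.01 (-0.60 to 0.57).

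Whether the change over the interval differs between rin and the wild type was tested directly. It was lower in rin for 4 of the 10 genes, where 2.97% of all genes were lower, and higher for 2, where 23.2% were. The 4 were ETR6, with a log2 difference of the changes of -2.75 (SE 0.60, limma adjusted p = 0.0039), EBF1 (-1.496), ETR4 (-1.26) and NR (-1.06, adjusted p = 0.036). EIN2, at 2.02 (SE 0.51, limma adjusted p = 0.0087), and ETR2, at 1.203, were higher. Both fell in the wild type and were not called in rin. The NR value sits at the threshold. Leaving out any one of wild-type replicates 1, 2 or 3 of 35 DAP, replicates 1 or 3 of 45 DAP, rin replicate 1 of 35 DAP or rin replicates 1 or 2 of 45 DAP gave an adjusted p of 0.051 to 0.092, and quantile normalization 0.055. For ETR2 the difference was 0.75 with TMM-type scaling (adjusted p = 0.12) and 0.42 with quantile normalization (adjusted p = 0.45). The receptor sum was 299 RPKM ± 20.1 in rin of 45 DAP against 154 RPKM ± 43.3 at 35 DAP (SD, n = 3 each, two-sided exact permutation p = 0.1). NR, ETR4 and ETR6 held 87.1% ± 2.29 of it at 45 DAP and 77.7% ± 5.14 at 35 DAP (SD, n = 3 each). Of these receptors, only NR had a higher mean share at 45 DAP, at 50.1% ± 12.6 against 27.3% ± 1.498 (SD, n = 3 each). ETR4 held 36.3% ± 10.4 against 44.2% ± 1.403, and ETR6 0.723% ± 0.196 against 6.16% ± 3.41 (SD, n = 3 each).

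In TF18 none of the 10 genes was called between 35 and 45 DAP by limma, and none had an unadjusted p under 0.05, where 0.712% of all genes were called. NR had 63.9, 39.2 and 41.9 RPKM at 45 DAP against 41.9, 42.1 and 62.9 RPKM at 35 DAP. The ages covered the same range, and the log2 fold change was -0.03 with a 95% interval of -0.57 to 0.52. Rises as large as that of the wild type or of rin lie outside this interval.

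ETR4 had 77.7, 57.7 and 71.4 RPKM in TF18 of 45 DAP against 70.1, 60.6 and 61.5 RPKM at 35 DAP, with an interval of the log2 fold change from -0.39 to 0.59. EIN2 stayed high at both ages, with 61.4, 53.7 and 64.7 RPKM at 45 DAP against 53.0, 59.6 and 70.0 RPKM at 35 DAP. EBF1 had 37.4, 35.5 and 32.6 RPKM at 45 DAP against 59.4, 42.6 and 42.8 RPKM at 35 DAP. Here all libraries of 45 DAP were the lower ones, but the log2 fold change of -0.43 was not called (limma adjusted p = 0.73). The receptor sum was 161 RPKM ± 22.1 at 45 DAP and 155 RPKM ± 13.8 at 35 DAP (SD, n = 3 each, two-sided exact permutation p = 0.7).

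Set against the wild-type change, that of TF18 was lower for 3 of the 10 genes, where 6.03% of all genes were lower, and higher for 2, where 33.6% were. The lower ones were NR, with a log2 difference of -2.90 (SE 0.36, limma adjusted p = 2.6e-05), EBF1 at -1.91 (adjusted p = 0.0012) and ETR4 at -1.82 (adjusted p = 0.00047). EIN2 (2.30) and ETR2 (1.13) were higher, and the ETR2 call was lost without wild-type replicate 1 of 35 DAP (0.94) or replicate 2 of 45 DAP (0.96) and came to 0.73 after TMM-type scaling and 0.24 after quantile normalization. ETR6, at -1.19 (adjusted p = 0.11), was not called. It was called with TMM-type scaling (-1.60), with quantile normalization (-2.18), with the fit limited to the compared groups, and without rin replicate 1 of 35 DAP (adjusted p = 0.044), which enters only through the common estimate of the spread.

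**Figure D4:**
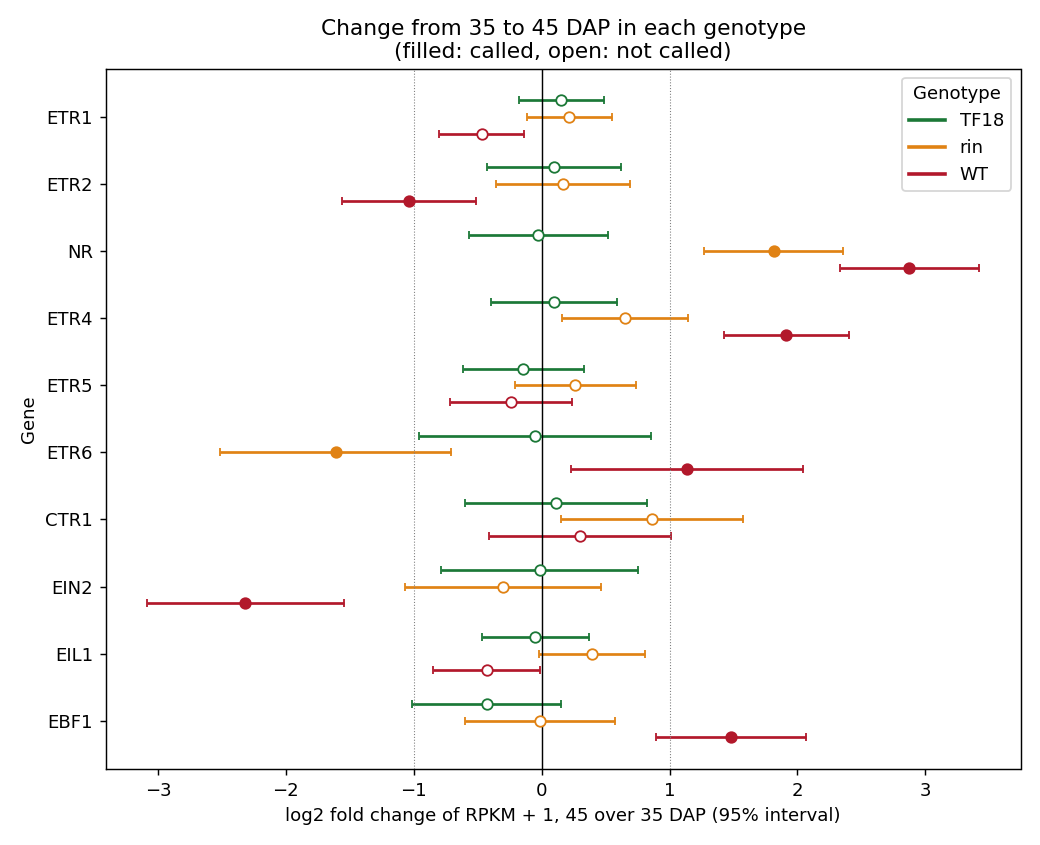
Log2 fold change of RPKM + 1 from 35 to 45 DAP (x axis) with its 95% interval for the 10 genes (y axis) in TF18, rin and the wild type. Filled points were called, by adjusted p and by size, and open points were not. The dotted lines mark a change of 1. NR is at -0.03 in TF18, 1.81 in rin and 2.88 in the wild type, and ETR6 is at -1.61 in rin and 1.14 in the wild type.

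At 35 DAP, before ripening, limma called none of the 10 in rin against the wild type, where 0.092% of all genes were called, and none had an unadjusted p under 0.05. In TF18 against the wild type none was called either, where 7.09% of all genes were, and 3 had an unadjusted p under 0.05. These 3 were ETR2, with a log2 fold change of -0.71 (adjusted p = 0.081), ETR5, with 0.52 (adjusted p = 0.16), and EIL1, with 0.45 (adjusted p = 0.16). ETR2 had 11.4, 8.46 and 10.1 RPKM in TF18 of 35 DAP, all below the wild-type libraries of that age. EIL1 had 94.3, 95.7 and 137 RPKM in TF18 of 35 DAP, which overlapped the wild-type values of 64.2 to 106 RPKM. NR in green fruit was at 49.0 RPKM ± 12.1 in TF18, 42.3 RPKM ± 13.2 in rin and 34.4 RPKM ± 2.74 in the wild type (SD, n = 3 each).

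At 45 DAP both genotypes were set against pink wild-type fruit. The comparisons share the 3 wild-type libraries, also with the wild-type change over time, so their values are given side by side and not as independent results. In TF18, 4 of the 10 genes were lower than in the wild type, where 6.19% of all genes were, and 1 was higher, where 40.3% were. In rin, 3 were lower, where 3.42% of all genes were, and 1 was higher, where 25.9% were. The median log2 fold change of the 10 genes was 0.12 in TF18 and 0.44 in rin, against 0.75 and 0.49 for all genes. With TMM-type scaling the medians of all genes came to 0.30 in TF18 and 0.20 in rin, and with quantile normalization to -0.02 and -0.04.

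For NR the log2 fold change against the wild type was -2.43 in TF18 (SE 0.25, limma adjusted p = 1.4e-06), with a mean 5.37-fold lower. In rin it was -0.81 (SE 0.25, limma adjusted p = 0.017), under the threshold of size, although all 3 rin libraries lay below the 3 wild-type ones. Without rin replicate 3 of 45 DAP, which had the highest NR level in rin, the value was -1.05 and was called, as it was with TMM-type scaling (-1.26) and with library weights (-1.12).

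ETR4 was lower in both, by a log2 fold change of -1.91 in TF18 (limma adjusted p = 5.1e-06) and -1.30 in rin (limma adjusted p = 0.0004). EBF1 was lower in both as well, at -1.35 in TF18 (limma adjusted p = 0.00055) and -1.55 in rin (limma adjusted p = 0.00041). Its level was 35.2 RPKM ± 2.38 in TF18, 32.0 RPKM ± 12.9 in rin and 93.4 RPKM ± 27.2 in the wild type (SD, n = 3 each). The libraries behind these means had 37.4, 35.5 and 32.6 RPKM in TF18, 46.8, 23.2 and 25.9 RPKM in rin and 73.2, 82.6 and 124 RPKM in the wild type, so neither genotype overlapped the wild type.

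ETR6 was lower, at -2.07 in rin (SE 0.43, limma adjusted p = 0.0012) and -1.15 in TF18 (SE 0.43, limma adjusted p = 0.027). The TF18 call was lost with a pseudocount of 5 (-0.79), and without TF18 replicate 1 or 2 of 45 DAP or wild-type replicate 1 or 3 of 45 DAP, with an adjusted p of 0.05 to 0.081. EIN2 was the 1 gene called higher in each, at 2.30 in TF18 (limma adjusted p = 5.7e-05) and 1.67 in rin (limma adjusted p = 0.0017). In rin its libraries had 59.6, 46.9 and 19.8 RPKM, and replicate 3 came close to the highest wild-type library of 18.4 RPKM. With only the rin and wild-type libraries of 45 DAP in the fit the adjusted p for EIN2 in rin was 0.063, and with quantile normalization the log2 fold change was 0.99.

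ETR1 and EIL1 had higher deposited values in both genotypes than in pink wild-type fruit, below the threshold of size. ETR1 had 23.5, 22.2 and 21.7 RPKM in TF18, 21.4, 19.3 and 14.1 RPKM in rin and 12.6, 10.4 and 12.7 RPKM in the wild type. EIL1, a transcription factor of the EIN3 type, had 111, 95.1 and 106 RPKM in TF18, 105, 73.9 and 75.3 RPKM in rin and 56.5, 59.7 and 57.3 RPKM in the wild type. All wild-type libraries were the lowest in both genes. ETR1 was at a log2 fold change of 0.87 in TF18 and 0.56 in rin, and EIL1 at 0.83 in TF18 and 0.52 in rin (limma adjusted p = 0.00019 to 0.039). With TMM-type scaling, ETR1 came to 0.28 in TF18 and 0.14 in rin and EIL1 to 0.22 in TF18 and 0.08 in rin. With quantile normalization EIL1 was at 0.74 in TF18 (adjusted p = 0.0072) and 0.31 in rin (adjusted p = 0.28). ETR1 was then at 0.07 in TF18 and -0.07 in rin, so its direction in rin depends on the scaling. ETR2 in rin was at 0.86, with 16.3, 15.1 and 13.2 RPKM, and was called without wild-type replicate 1 of 45 DAP (1.03). In TF18 ETR2 was at 0.42 as deposited and -0.63 with quantile normalization, and ETR5 at 0.61 and -0.70. CTR1 in TF18 was at -0.18 as deposited (limma adjusted p = 0.66), -0.77 with TMM-type scaling (adjusted p = 0.035) and -0.88 with quantile normalization (adjusted p = 0.0079), under the threshold of size in each.

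When TF18 was set against rin at 45 DAP, NR was the only one of the 10 genes called. It was lower in TF18, as 5.16% of all genes were, at -1.62 on the log2 scale with an SE of 0.25 (limma adjusted p = 0.00035). TF18 libraries reached at most 63.9 RPKM where rin libraries started at 119 RPKM. ETR6 was at 5.18, 3.95 and 5.67 RPKM in TF18, above the 2.70, 1.41 and 2.44 RPKM of rin, with a log2 fold change of 0.91 that was not called (limma adjusted p = 0.12). With library weights it was 1.25 and called (adjusted p = 0.0091). ETR4 had a log2 fold change of -0.61 (limma adjusted p = 0.057) with overlapping libraries. For EIN2 and EBF1 the values were 0.63 (95% interval -0.14 to 1.40) and 0.20 (-0.39 to 0.78).

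Ordered by its mean level, NR was highest in the wild type of 45 DAP (260 RPKM), then in rin of 45 DAP (151 RPKM), TF18 of 35 DAP (49.0 RPKM), TF18 of 45 DAP (48.3 RPKM), rin of 35 DAP (42.3 RPKM) and the wild type of 35 DAP (34.4 RPKM). The first step is the one below the threshold of size described above, and none of the comparisons made among the 4 lowest groups was called. In TF18 of 35 DAP all 3 libraries lay above those of the wild type of that age, with a log2 fold change of 0.48 (limma adjusted p = 0.27). For EIN2 the order ran the other way at its low end, with the wild type of 45 DAP at 12.5 RPKM ± 6.27 (SD, n = 3) and the other 5 groups at 42.1 to 61.1 RPKM. Across all 18 libraries, the genes whose log2 values were most like those of NR were Solyc04g076890 (Pearson r = 0.972) and Solyc09g010110 (r = 0.961). For EBF1 they were Solyc04g054260 and Solyc12g096570 (r = 0.896 each). These are descriptions over libraries that share groups, and the table gives no names for these genes.

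Further identifiers held to belong to the pathway were counted, without naming them, since the table carries no annotation. Of 8 listed for other signalling genes, limma called 3 higher and 2 lower at 45 than at 35 DAP in the wild type, 1 lower in rin and none in TF18 (0 with an unadjusted p under 0.05), with median log2 fold changes of -0.07, 0.51 and -0.04. Over all genes, 7.54% were called higher and 34.2% lower in the wild type, 7.49% and 8.84% in rin, and 0.712% in either direction in TF18. Of 10 listed for ethylene synthesis and the genes E4 and E8, 7 rose and 1 fell in the wild type (median 7.15), 8 rose in rin (median 2.25) and 1 rose in TF18 (median 0.63). The medians of all genes were -0.58, 0.04 and 0.08 in the same order. At 45 DAP, 7 of these 10 were lower in TF18 than in rin and 0 were higher (median -1.79), where 5.16% of all genes were lower and 12.3% higher (median 0.20). Against the wild type, 6 were lower and 2 higher in TF18 (median -5.35), where 6.19% of all genes were lower and 40.3% higher (median 0.75). In rin, 6 were lower and 2 higher than in the wild type (median -2.53), where 3.42% of all genes were lower and 25.9% higher (median 0.49).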

How the data were processed

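The authors deposited 1 table of RPKM values per gene and library, as its name and values show. No source used here gives the genome build, annotation, strand setting or counting program. CASAVA 1.8.1 and Bowtie2 are named in the submitters' processing notes. How reads of similar genes were divided is not stated either. Titles gave the group and the replicate number.

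Gene lengths were searched only in steps of 3 bases, and the shortest length that fitted was kept. Of the 28612 genes with a value above 0, all gave whole reads in this way (tolerance 0.02 reads). The step was assumed and not tested, and the read totals, read counts and lengths rest on it. The main test was limma 3.58.1 in R 4.3.3 on log2(RPKM + 1), with 1 model of 6 group means over 18 libraries, variances moderated along a trend, and two-sided p-values adjusted by the Benjamini-Hochberg method over 20658 genes. A gene was called at an adjusted p under 0.05 with a log2 fold change of at least 1 in size. The text names all 10 members and, for NR and EBF1, the 2 genes of highest Pearson correlation. Alternatives changed the scaling, pseudocount (5 or 0.1), filter, samples in the fit, library weights and replicate block, and left out each library in turn. The recovery of reads and the limma test were also run on simulated data, and the outcomes of those runs are not given here. Other steps used Python 3.11.15 with scipy 1.17.1.

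The table holds identifiers only, and 0 of them occur in the RefSeq gene table at hand. The names of the 10 genes came with the list of identifiers. RefSeq (assembly SLM_r2.1) has 1 gene for each of the 10 names, and its chromosome number was the one in the identifier for 10 of 10. Markers of cell types in the fruit were not analysed here. The identifiers of the other lists, those held to be RIN, FUL1 and FUL2 included, come from general knowledge. The members and lists were chosen with earlier results of these data known.

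Whether equal replicate numbers mark paired libraries was checked from the correlation of deviations from the group means. All 3 pairs were over 0.1 in 1 of 8 comparisons, TF18 against the wild type at 35 DAP (0.284 to 0.47), from the data only.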

Additional observations from a re-analysis of the deposited data

Results flagged for a closer look

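Results are given here where TF18 or rin changed between the ages by another amount than the wild type, as limma tested directly. Values are log2 differences of the changes, the other genotype minus the wild type. For TF18 they were -2.90 for NR, -1.91 for EBF1, -1.82 for ETR4, 1.13 for ETR2 and 2.30 for EIN2. For rin they were -2.75 for ETR6, -1.496 for EBF1, -1.26 for ETR4, -1.06 for NR, 1.203 for ETR2 and 2.02 for EIN2. ETR2 lost its call in both genotypes with TMM-type scaling (0.73 in TF18 and 0.75 in rin) and with a pseudocount of 5 (0.86 in TF18 and 0.91 in rin). With 3 libraries in a group, single libraries were not screened as outliers.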

How the results depend on the processing

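Of 29 called results for single genes, 21 kept direction and call under all 27 alternatives, and 29 kept their direction. The called results of NR (but for its difference between rin and the wild type), ETR4 and EBF1 were among the 21. The exceptions concern ETR2, ETR6, EIN2 in rin against the wild type and that NR difference, and their values stand beside the results. Of the results not called, 6 were called under an alternative. ETR5 turned round in TF18 against the wild-type change with quantile normalization (-1.26, adjusted p = 0.0051); the cause was not tested. The count of genes called between the ages in rin was 1 with a pseudocount of 5 and 1 when the fit held the compared groups alone, against 2. Between TF18 and rin at 45 DAP it was 2 with library weights, against 1. The receptor sum of TF18 differed between the ages by 6.37 RPKM, and by -2.40 with TMM-type scaling. Leaving out single libraries gave -5.22 to 16.8 RPKM for that sum and -2.96 to 0.93 percentage points for the share of NR, ETR4 and ETR6, so no direction is given. Among calls over all genes, the share that was higher at 45 DAP in the wild type was 18.04% for the deposited values, 30.9% after TMM-type scaling and 49.1% after quantile normalization. In the same order it was 86.7%, 67.4% and 53.7% for TF18 against the wild type at 45 DAP, 88.3%, 72.1% and 54.8% for rin against it, 70.5%, 58.8% and 52.0% for TF18 against rin, 84.8%, 68.9% and 47.5% for the TF18 change and 88.6%, 67.4% and 49.5% for the rin change, each minus that of the wild type. It was 79.6%, 73.9% and 65.8% for TF18 between the ages, and 38.3%, 27.9% and 44.1% for TF18 against the wild type at 35 DAP. The replicate number as a block changed 0 of the member calls: in the comparison where numbers may pair the libraries, TF18 against the wild type at 35 DAP, 0 of the 10 genes were called with the replicate block. ETR6 had the largest standard error of the 10 genes (0.43 for a comparison of 2 groups), and ETR5 and ETR6 had the fewest reads in a library (37).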

Other observations

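The balance of NR and ETR4, both given per length, differed between libraries. The ratio of NR to ETR4 was 0.823, 0.680 and 0.586 in TF18 of 45 DAP and 0.598, 0.696 and 1.02 in TF18 of 35 DAP. In rin it was 1.02, 1.002 and 2.67 at 45 DAP and 0.632, 0.654 and 0.570 at 35 DAP. In the wild type it was 0.997, 1.06 and 0.922 at 45 DAP and 0.526, 0.512 and 0.472 at 35 DAP. Replicate 3 of rin at 45 DAP had the highest NR and the lowest ETR1, ETR2, ETR4, CTR1 and EIN2 of the 3 libraries of its group. In ETR5, ETR6, EIL1 and EBF1 it lay between the other replicates, and whether it is an outlier was not tested.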
